A study of Mus musculus with 2 samples.

Results

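Intronic sites of open chromatin that were listed in the thymus library labelled replicate 2 and not in the library labelled replicate 1 numbered 8213. They were chosen by the peak calls themselves: peaks of the shorter deposited list of the library labelled replicate 2 that lay over 1 kb from every annotated transcript start, had their midpoint inside a gene but in no exon, and shared not even 1 bp with any deposited replicate 1 peak, of the shorter or the longer list. Their presence in 1 library and absence in the other is therefore the rule and not a result. The shorter list held 60644 peaks, of which 17080 were intronic by this rule, so the 8213 made up 48.1% of the intronic peaks (95% Wilson interval 47.3% to 48.8%). The other 8867 intronic peaks overlapped a peak of the library labelled replicate 1 and are called shared. The mirror rule, applied to the library labelled replicate 1, left 17778 of its 26988 intronic peaks without a partner (65.9%).

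The series holds 2 libraries of thymus made by DNase-seq, an assay that maps open chromatin by where the enzyme DNase I can cut it. Both came from male B6CASTF1/J mice, an F1 hybrid strain, aged 36 days, with no treatment in the labels. They form 1 group: the labels number them as biological replicates, yet both carry the same donor identifier. The files hold no read counts, so depth is unknown, and with 1 library on either side of the rule no difference below has a replicate check. Intervals cover the counting of peaks only.

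Distal open sites in introns often are enhancers, stretches where transcription factors bind and act on a promoter of the same or a nearby gene. Most cells of a thymus at this age are thymocytes, developing T cells that rearrange and test their T cell receptor. Their gene programme is set by factors such as TCF-1 (gene Tcf7), ETS1, RUNX1, BCL11B, GATA3 and the E proteins, and SATB1 organises chromatin in these cells.

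The libraries stood apart at the genes that define the tissue. A promoter peak, meaning one of a library's shorter list within 1 kb of a transcript start, is called an open promoter below. Absence from that list, at unknown depth, does not show a closed promoter. Such a peak was present at 19 of 20 T cell receptor and coreceptor genes in the library labelled replicate 2. In that labelled replicate 1 it was present at 5 of 20. Pancreatic acinar genes ran the other way, with 5 of 18 open promoters in the replicate 2 library and 17 of 18 in the replicate 1 library. Over all 21938 protein-coding genes the share was 60.1% in the replicate 2 library and 63.1% in the replicate 1 library. T cell receptor signalling genes had 27 of 27 open promoters in the replicate 2 library and 15 of 27 in the replicate 1 library. Thymocyte development genes had 26 of 28 in the replicate 2 library and 13 of 28 in the replicate 1 library, and T lineage transcription factors 34 of 34 and 32 of 34. The thymus label is thus met by these lists in the library labelled replicate 2. In the shorter list of that labelled replicate 1, most receptor and coreceptor promoters had no peak and most transcription factor ones had a peak. What part the make-up of either library has in the list of unpartnered sites was not tested, and in bulk tissue fewer cells with an open site and less opening per cell cannot be told apart.

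The sequences below are the middle 200 bp of 7 sites of the replicate 2 library alone, read 5′ to 3′ on the plus strand of GRCm38 (mm10). The first 3 are the strongest sites in Tcf7, Ets1 and Satb1, the genes that mark this set. That in Tcf7 lay 1015 bp from the nearest transcript start, just beyond the 1 kb limit, and its window had 67% GC. The next 3 are the strongest sites in the other genes among the 5 with the most sites, other than Gm26551, whose strongest site held none of the 4 consensus kinds named next. The last, from Tcf12, was picked after its values were seen, as 1 of 2 sites with all 4 consensus kinds (ETS, RUNX, TCF/LEF and E protein). Capitals mark those matches on either strand.
Tcf7, chr11:52274781-52274980: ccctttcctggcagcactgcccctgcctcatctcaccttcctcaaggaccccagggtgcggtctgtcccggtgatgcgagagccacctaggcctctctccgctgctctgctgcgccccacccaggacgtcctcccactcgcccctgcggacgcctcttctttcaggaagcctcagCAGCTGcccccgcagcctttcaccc
Ets1, chr9:32747731-32747930: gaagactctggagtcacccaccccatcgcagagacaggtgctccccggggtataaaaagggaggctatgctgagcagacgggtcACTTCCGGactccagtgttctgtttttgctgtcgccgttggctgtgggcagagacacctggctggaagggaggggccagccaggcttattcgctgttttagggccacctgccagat
Satb1, chr17:51806281-51806480: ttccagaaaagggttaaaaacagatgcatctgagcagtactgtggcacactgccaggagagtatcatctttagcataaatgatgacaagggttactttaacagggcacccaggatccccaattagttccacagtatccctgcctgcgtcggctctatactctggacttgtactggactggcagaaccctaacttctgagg
1600002D24Rik, chr16:95869661-95869860: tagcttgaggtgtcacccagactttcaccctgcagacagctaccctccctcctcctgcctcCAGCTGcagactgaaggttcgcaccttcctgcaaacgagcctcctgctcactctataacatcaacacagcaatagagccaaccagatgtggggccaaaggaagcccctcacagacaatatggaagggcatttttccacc
Gm20388, chr8:122470061-122470260: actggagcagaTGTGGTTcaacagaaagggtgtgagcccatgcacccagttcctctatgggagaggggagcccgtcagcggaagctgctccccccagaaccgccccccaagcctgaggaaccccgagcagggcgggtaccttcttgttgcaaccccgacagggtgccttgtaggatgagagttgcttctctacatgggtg
Gse1, chr8:120497771-120497970: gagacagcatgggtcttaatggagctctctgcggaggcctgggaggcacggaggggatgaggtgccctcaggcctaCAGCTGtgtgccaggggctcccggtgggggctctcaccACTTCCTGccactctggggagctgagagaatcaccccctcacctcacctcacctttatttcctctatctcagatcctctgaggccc
Tcf12, chr9:72097159-72097358: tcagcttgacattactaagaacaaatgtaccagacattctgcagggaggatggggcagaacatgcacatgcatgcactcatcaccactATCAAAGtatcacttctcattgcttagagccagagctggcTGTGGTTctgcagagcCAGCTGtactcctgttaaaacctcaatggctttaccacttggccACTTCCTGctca
The Tcf7 window carried an E protein match, the Ets1 window an ETS match and the Satb1 window none. 1600002D24Rik carried an E protein match, Gm20388 a RUNX match, and Gse1 an E protein and an ETS match. The Gm20388 window also lay in the gene Rnf166, and the Gse1 window also lay in Gm20388.

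Signal is the authors' value per peak and is compared only inside a library, since its scaling was not given in the sources used here. Sites of the replicate 2 library alone had a median signal of 1.09, with quartiles of 0.732 and 1.70 and a range of 0.0925 to 12.8. Shared intronic peaks had a median of 1.59 in the same library. The unpartnered share was lower where the signal was higher. In the weakest 10% of the 17080 intronic peaks 61.7% had no partner, and in the strongest 10%, with signals from 3.80 to 48.3, 19.8% had none. The unpartnered share was 33.4% over all peaks of the shorter list, 19.3% at promoters, 44.2% in exons and 39.4% between genes.

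**Figure D1:**
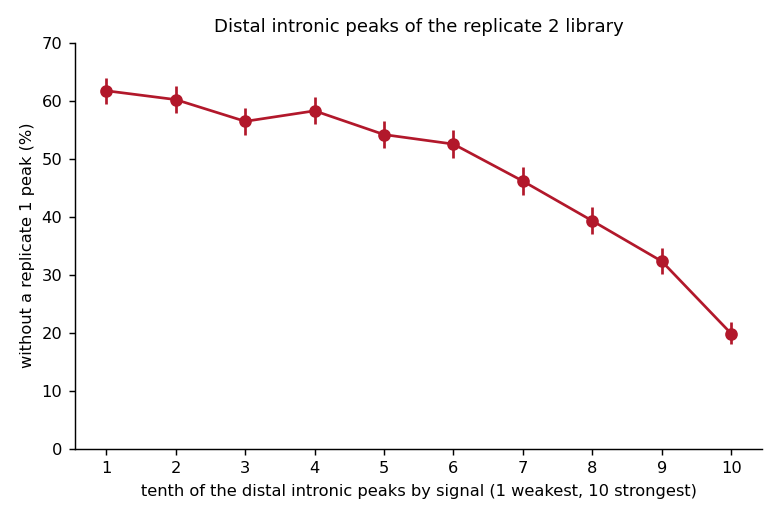
Share of the intronic peaks of the library labelled replicate 2 with no peak in the library labelled replicate 1 (vertical axis, %), in 10 bins of signal within the library labelled replicate 2 (horizontal axis, weakest to strongest). Points are shares and bars are 95% Wilson intervals; the share is 61.7% in the weakest bin and 19.8% in the strongest.

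At the edges of the rule, 117 sites lay within 100 bp beyond the 1 kb limit from a start, with a median signal of 1.03, and 148 peaks of the same kind within 100 bp inside it were left out, with a median of 1.19. Within 100 bp of a replicate 1 peak lay 200 sites (median 0.971), and 50 intronic peaks were left out for an overlap of at most 20 bp (median 1.18).

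The 10 sites with the highest signal lay in introns of Gtf2ird1, Pld3, Gm21887, Il21r, Colq (with Gm49387), Fmnl1, Trp53i11, Rara, Kcnh2 and Nr4a1. The strongest, at chr5:134444501-134444740 in Gtf2ird1, reached 12.8. The site in Il21r, the receptor for interleukin 21, had a signal of 11.04 (chr7:125605821-125605980). That in Rara, a retinoic acid receptor, had 9.02 over 460 bp (chr11:98941941-98942400). That in Nr4a1, a nuclear receptor gene switched on by T cell receptor signals, had 8.55 (chr15:101258441-101258800). In 9 of the 10 the library labelled replicate 1 had no listed interval at all in its table of false discovery rates (FDR), which lists intervals below 0.05. The exception was the Pld3 site (chr7:27541461-27541640, signal 11.7), which touched a replicate 1 peak without overlapping it and held a replicate 1 interval at FDR 0.0225.

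The rule used peak lists only, and the FDR tables and footprint lists gave a second look at the same libraries. Of the 8213 sites, 340 (4.14%) held any replicate 1 interval listed below 0.05, and 123 held one below 0.001. In the mirror set, 407 of the 17778 sites of the replicate 1 library alone (2.29%) held a listed replicate 2 interval. The lowest FDR within a site in its own library had a median of 7.91e-07, against 5.11e-12 in shared peaks. A footprint is a short protected stretch inside an open site. A replicate 2 footprint fell in 86.2% of the sites (85.5% to 87.0%) and in 96.3% of shared peaks, with a mean of 2.41 per site and 2.91 per shared peak. A replicate 1 footprint fell in 37 of the sites (0.451%) and in 90.5% of shared peaks. These files come from the same reads as the peaks and are not independent of the rule.

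The sites lay in 3704 host genes. Of these, 3083 were protein-coding, which is 14.1% of all protein-coding genes, and 331 were long intergenic non-coding genes. Because gene spans overlap, 611 sites counted for more than 1 gene, up to 24 genes. Most hosts held few: 2023 had 1 site and 685 had 2, while 420 had 5 or more and 97 had 10 or more. Among protein-coding genes 3.99% had at least 3 and 1.72% at least 5. The first 20 hosts held 505 of the 8213 sites (6.15%). Taking all protein-coding genes together, 1822 held more sites of the replicate 2 library alone than of the replicate 1 library alone, and 4457 held fewer.

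Tcf7 came after Gm20388 and 1600002D24Rik by number and was the densest protein-coding gene with at least 5 sites. The gene (ENSMUSG00000000782.15, chr11:52252371-52283014, minus strand) encodes TCF-1, a factor that Notch signals switch on at T cell commitment. It held 41 sites, beside 2 shared peaks and no peak of the replicate 1 library alone. That is 190.6 sites per 100 kb of intron, against 0.852 over all protein-coding genes. The sites covered 11.7 kb, with overlaps between them counted once, beside 21.5 kb of intron in the gene, with signals from 0.378 to 4.68 and a median of 0.863. Of the 41, 34 also lay in other annotated genes, mostly the long non-coding gene Gm26551, which itself held 38. Peaks in the deposited list often lie close together, so the 41 joined into 3 stretches when gaps of up to 1 kb were closed, an alternative added after the data were seen. Counting only sites above the median signal of all replicate 2 peaks left 11.

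Ets1 (ENSMUSG00000032035.15, chr9:32636221-32757820, plus strand), the ETS family factor of lymphocytes, held 18 sites, beside 2 shared peaks and none of the replicate 1 library alone. Their signals ran from 0.293 to 5.43, with a median of 0.643. They fell in groups 76.5 to 81.3 kb and 104.7 to 112.4 kb from the 5′ end of the gene. With gaps of 1 kb closed they formed 5 stretches, and 5 sites lay above the median signal. Satb1 (ENSMUSG00000023927.15, chr17:51736187-51833290, minus strand) held 13 sites, no shared peak and 1 peak of the replicate 1 library alone. All 13 belonged to 1 stretch, 26.8 to 32.9 kb from the 5′ end, and covered 2.77 kb. They were weak, with signals from 0.131 to 0.686 and a median of 0.308, so none lay above the median of all peaks. Moving the distance from a transcript start to over 2500 bp left 30, 13 and 8 sites in Tcf7, Ets1 and Satb1.

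**Figure D2:**
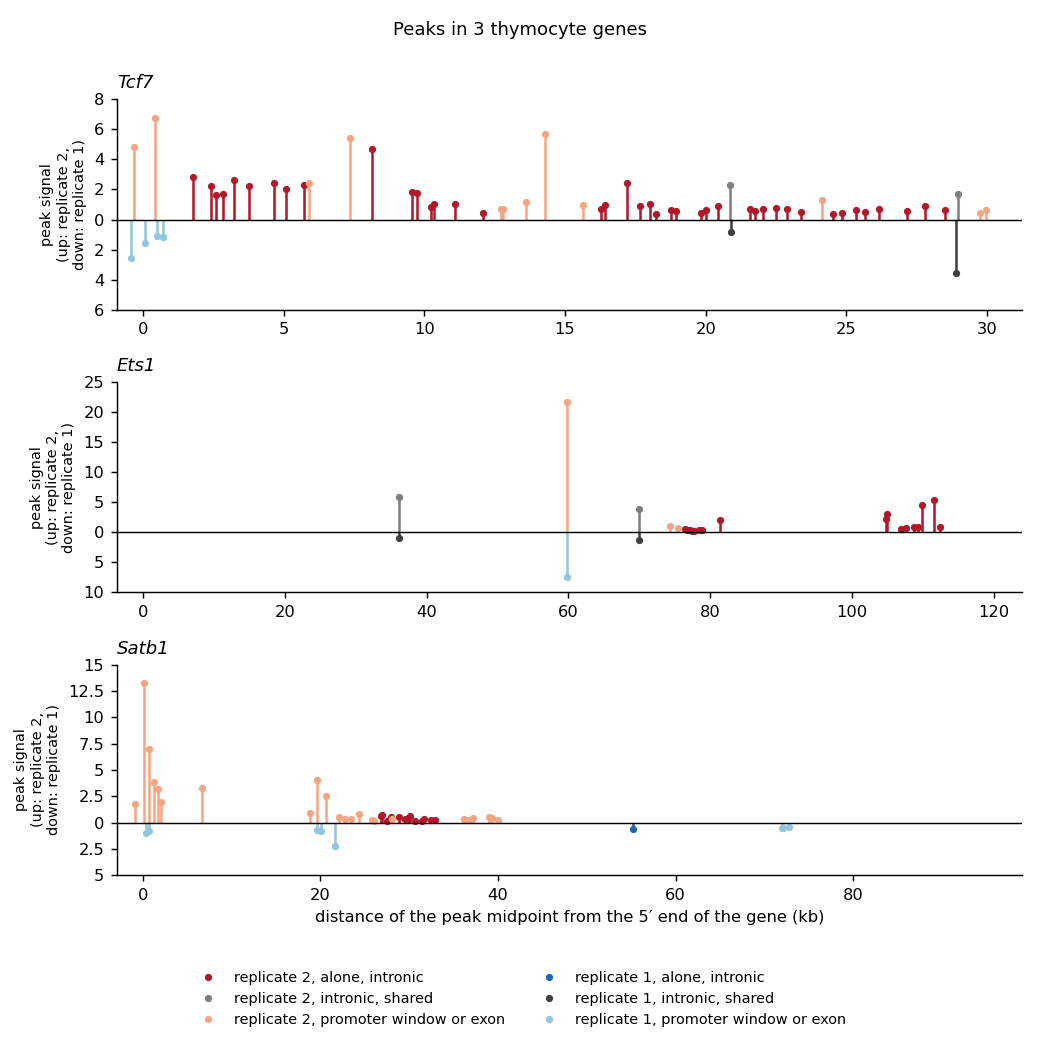
Signal of each peak (vertical axis) by its distance from the 5′ end of the gene in kb (horizontal axis) in Tcf7, Ets1 and Satb1, with the library labelled replicate 2 as points up and the library labelled replicate 1 as points down on its own scale. The sites of the replicate 2 library alone spread along Tcf7, form 2 groups in Ets1 and 1 narrow group of 13 in Satb1.

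Other hosts near the top included genes of the T lineage. Bcl11b, the factor that seals T cell identity, and Runx1, which acts from the earliest thymocytes, held 19 sites each, beside 3 and 2 shared peaks and 1 and 4 peaks of the replicate 1 library alone. Ccnd3, the D-type cyclin used by dividing thymocytes, held 23, beside 3 shared and 1 of the replicate 1 library alone, with a highest signal of 8.42. Prex1, an exchange factor for the GTPase Rac, held 19 beside 3 shared and 1. These genes had few peaks of the other classes.

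Several non-coding or large genes ranked high too. The non-coding gene 1600002D24Rik held 44 sites in 15 stretches, beside 4 shared peaks and 3 of the replicate 1 library alone, with signals of 0.123 to 4.96. BC065403 held 17 and no intronic peak of either other class, and AC169509.1 held 21, no shared peak and 6 of the replicate 1 library alone. Gm20388 led by number with 114, but its annotated span is 4435 kb, it held 110 shared peaks and 182 of the replicate 1 library alone, and its density was 3.17 sites per 100 kb. Size and number went together in Fgfr2 as well, a fibroblast growth factor receptor whose annotation spans 2961 kb. It held 23 sites, beside 32 shared peaks and 105 of the replicate 1 library alone, and 14 of the 23 also lay in other genes. Of the first 20 hosts, 1 stayed among the first 20 when ranked per 100 kb of intron.

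The remaining hosts among the first 20 were Gse1 with 28 sites, Tbc1d22a with 26, Clec16a and Gm20696 with 19 each, Abtb2 and Pakap with 18 each, and Mad1l1 and Wwox with 17 each. All 18 sites of Pakap and 17 of the 19 of Gm20696 also lay in other genes. With each site given to its shortest host only, Pakap kept 0 and Gm20696 kept 15. Mad1l1 belongs to the spindle checkpoint and Wwox is a very long gene that spans a fragile site. Peaks of the replicate 1 library alone outnumbered shared ones in Gse1 (26 against 19), Tbc1d22a (8 against 6) and Abtb2 (10 against 4). They also did so in Mad1l1 (14 against 6) and Wwox (27 against 12). Shared peaks led in Clec16a (3 against 5), Gm20696 (10 against 12) and Pakap (4 against 7). Counted gene by gene over all protein-coding genes, 16464 stood against 8155, so more of the former is the usual order.

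**Figure D3:**
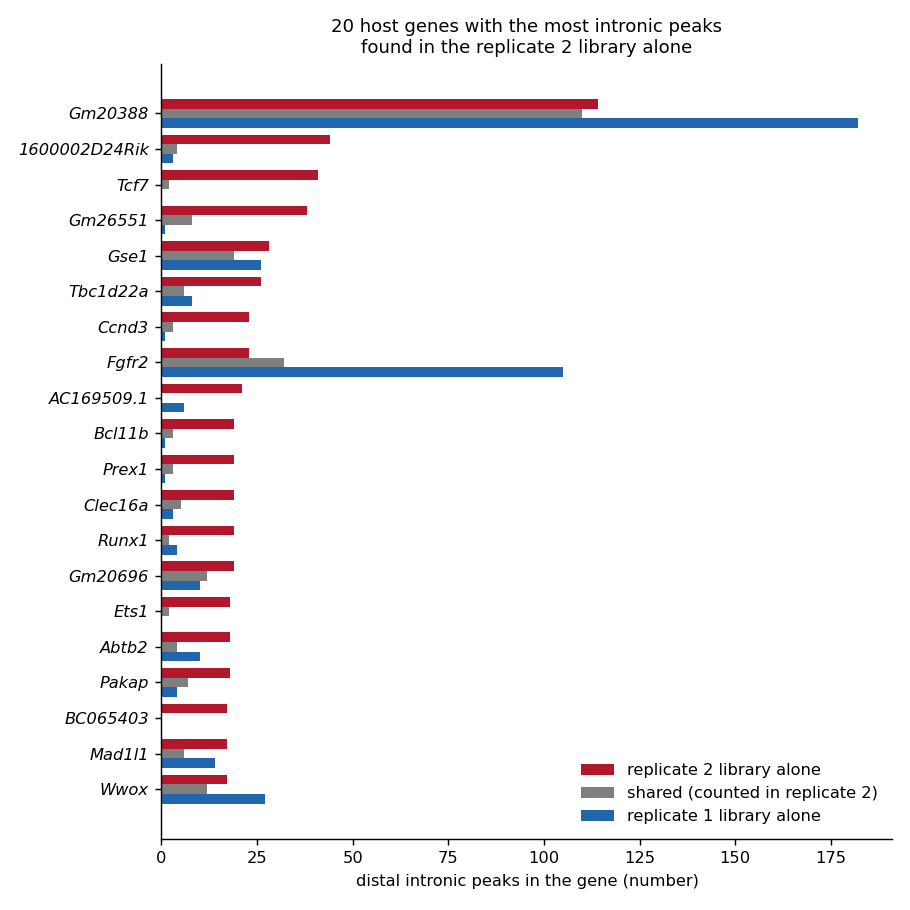
Number of intronic peaks (horizontal axis) in the 20 genes with the most sites of the replicate 2 library alone, ordered from most to fewest. Bars show sites of the replicate 2 library alone, shared peaks and peaks of the replicate 1 library alone; Tcf7, Ets1 and BC065403 have none of the last.

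Per 100 kb of intron, and among protein-coding genes with at least 5 sites, Tcf7 was followed by Zbp1 (126.0), Cd8b1 (121.6), Rbm38 (120.5), Gm525 (110.1), Abca2 (99.4), Kcnn4 (98.1), Ubxn11 (85.2), Atp13a1 (82.4) and Mob3a (65.6). Cd8b1, the beta chain of the CD8 coreceptor, held 15 sites and no other distal intronic peak, with a median signal of 1.34. Kcnn4, a calcium-activated potassium channel, held 9 sites with a median of 1.80. Zbp1, a sensor of Z-form nucleic acid, held 10 with a median of 0.185. Atp13a1, a P-type ATPase, held 10 with a median of 0.143. Dense hosts thus included genes with medians above and far below the 1.09 of all the sites.

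Among the 97 hosts with 10 or more sites were 88 protein-coding genes. Of these, 85 had a promoter peak in the replicate 2 library and 78 in the replicate 1 library. Peaks of the replicate 1 library alone were absent from 16 of the 88 and outnumbered the sites in 11. Over all protein-coding genes 24.3% held at least 1 such peak. Of the 377 protein-coding genes with at least 5 sites, 361 (95.8%) had a promoter peak in the replicate 2 library and 334 (88.6%) in that labelled replicate 1. Over all protein-coding genes these shares were 60.1% and 63.1%. Most of the 377 genes therefore had a promoter peak in both libraries, while the intronic sites were listed in 1 by the rule.

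With gaps of up to 1 kb closed, the 8213 sites formed 6516 stretches, and 5447 of these (83.6%) were 1 site. At the other end, 63 stretches held 5 or more and together 434 sites. The longest run was the 25 sites over 12.5 kb in Tcf7 and Gm26551, followed by 14 over 8.76 kb in Cd8b1, 13 over 6.41 kb in Satb1 and 12 over 8.42 kb in Ubxn11. Of the top stretches, that in E2f2, an E2F factor of the cell cycle, packed 9 sites into 4.32 kb with a median signal of 1.42. A second site of the same set lay within 5 kb of 47.7% of the sites (46.7% to 48.8%). For shared peaks the share with another shared peak that near was 22.6%, and for sites of the replicate 1 library alone 52.4%, in a larger set.

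Genes were then read by lists that cover the thymocyte lineage and other tissues, beside the 14.1% of all protein-coding genes that held a site. Of 34 T lineage transcription factors, 31 held at least 1 site (91.2%), with a median of 4.5 sites per gene, and Cbfb, Id2 and Id3 held none. A peak of the replicate 1 library alone lay in 22 of the 34, beside 24.3% of all protein-coding genes, so that set was frequent in these genes too. Counting only sites at or above the median signal of all replicate 2 peaks, 58.8% of the list and 5.05% of all protein-coding genes held a site, and the median per gene was 1, while it was 8.5 with the longer replicate 2 list. The list held 249 sites, 54 shared peaks and 115 of the replicate 1 library alone, which is 60.8, 13.2 and 28.1 per Mb of intron. All protein-coding genes together had 8.52, 9.14 and 18.4 per Mb. The 249 include the 41, 18 and 13 sites of Tcf7, Ets1 and Satb1, the genes that mark this set. The density of this list is therefore not independent of how the set was chosen. Tcf7, Bcl11b, Runx1 and Ets1 led the list, followed by Rora, an orphan nuclear receptor, with 16 sites, and Foxp1 with 15. Both also held many replicate 1 peaks, Rora 15 and Foxp1 22 of the replicate 1 library alone. Promoters of this list were open in both libraries, at 34 genes in the replicate 2 library and 32 in that labelled replicate 1.

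Receptor and signalling genes held sites as well. Of the 20 T cell receptor and coreceptor genes, 13 held at least 1 (65.0%), and the list had 80.0 sites per Mb, beside 6.40 shared peaks and 3.20 peaks of the replicate 1 library alone. After Cd8b1 came Cd247, the zeta chain of the receptor complex, with 9, and Cd8a, Cd2 and Cd44 with 4 each. Of 27 T cell receptor signalling genes 20 held a site (74.1%), led by Itpkb with 9, Fyb with 8, Prkcq with 7, and Grap2 and Fyn with 6 each. Itpkb makes an inositol phosphate that thymocytes need to mature, Fyb is an adaptor that links the receptor to adhesion, and Prkcq is the protein kinase C of T cells. Fyn, a Src family kinase also used outside T cells, held 23 peaks of the replicate 1 library alone. Of 28 thymocyte development genes 16 held a site (57.1%), led by Bcl2l1 with 11, which encodes the survival protein BCL-xL, and by Ccr9 with 5, the receptor for the thymic chemokine CCL25, with a highest signal of 7.44. Peaks of the replicate 1 library alone lay in 2 of the 20 receptor and coreceptor genes, 12 of the 27 signalling genes and 5 of the 28 development genes.

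The lists of other cells had lower shares than the receptor, signalling, development and T lineage lists, but some lay above all protein-coding genes. Effector T cell genes such as cytokines and granzymes held sites in 3 of 20 cases (15.0%), near the 14.1% of all genes. B cell genes did so in 3 of 14 (21.4%) and myeloid and dendritic genes in 5 of 18 (27.8%), with Flt3 highest at 4. Of 12 endothelial genes 2 held sites (16.7%), with 11 sites in Pecam1. Per Mb of intron the myeloid list had 22.86 sites, the effector list 21.02 and the endothelial list 13.57, against 8.52 for all protein-coding genes. The B cell list had 7.08 and the thymic epithelium list 7.88. The 16 thymic epithelium genes held sites in Fgfr2 alone. Erythroid genes and fibroblast and mural cell genes, 10 and 12 genes, held none. Their introns total 69.5 kb and 210 kb, where few sites would fall at the density of all genes.

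Pancreas and gut endoderm lists were rich in peaks of the replicate 1 library alone. The 18 pancreatic acinar genes held no site, 3 shared peaks and 100 peaks of the replicate 1 library alone in 278 kb of intron. That is 359.8 of the last per Mb, against 18.4 over all protein-coding genes. The 14 endoderm and liver genes held no site and 31 peaks of the replicate 1 library alone (91.4 per Mb) in 339 kb. The 14 pancreatic islet genes held 1 site, in Nkx2-2, and 11 peaks of the replicate 1 library alone (57.2 per Mb). All protein-coding genes together held 8.52 sites per Mb, so introns this short would hold few sites at that density. The counts of 0 therefore do not show depletion. Neuron genes, with very long introns, held 8 sites in 3 genes, or 0.696 per Mb. Skeletal muscle genes held sites in 1 of 12 cases. Of the 16 housekeeping genes 1 held a site, although all 16 promoters were open in each library. In all, 9 of the 17 lists had a share of genes with a site above 14.1%.

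**Figure D4:**
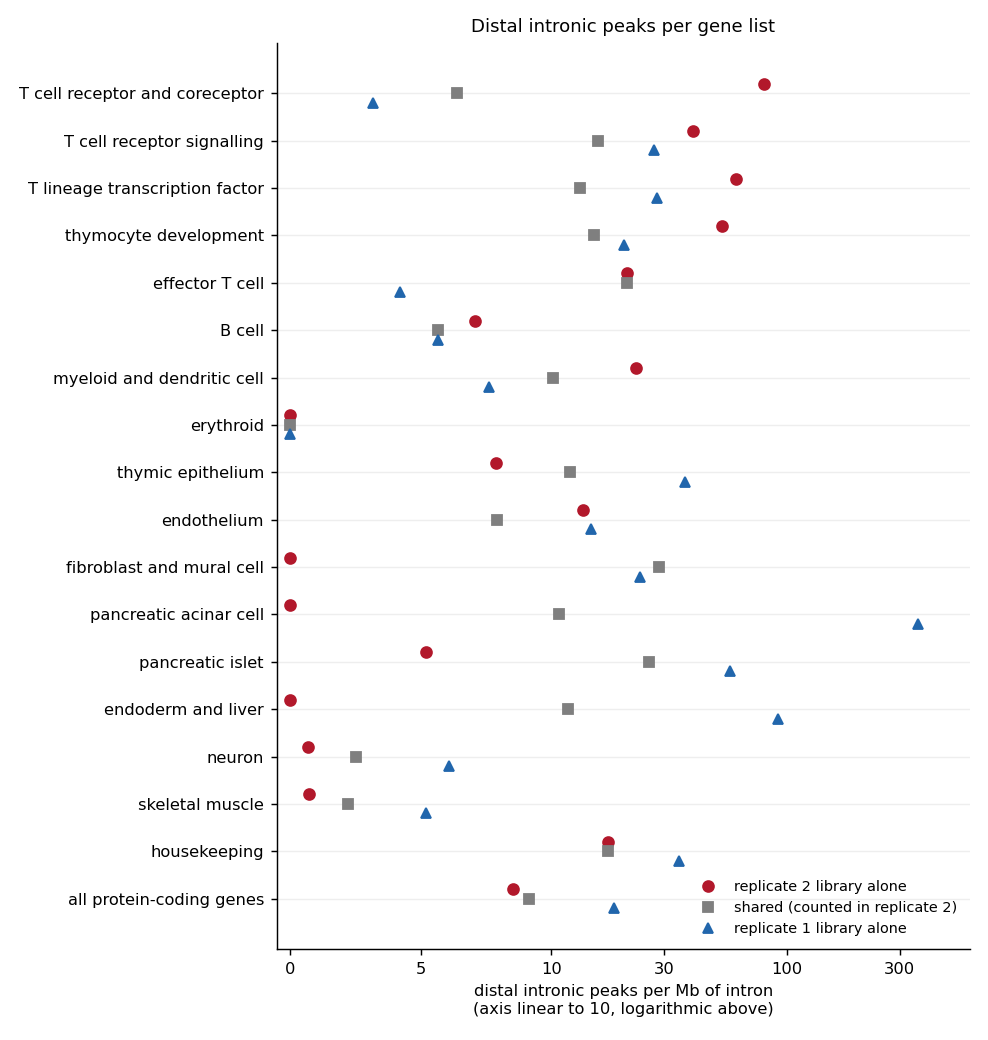
Distal intronic peaks per Mb of intron (horizontal axis, linear to 10 and logarithmic above) for 17 gene lists and for all protein-coding genes. Circles are sites of the replicate 2 library alone, squares shared peaks and triangles peaks of the replicate 1 library alone; the T cell receptor and coreceptor list stands at 80.0 sites per Mb and the pancreatic acinar list at 0.

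Width, first intron position and base composition were not used by the rule, which did set a minimum distance from a start. The sites were 187 bp wide at the median, with quartiles of 127 and 240 bp, against 180 bp in shared peaks and 200 bp in peaks of the replicate 1 library alone. They lay a median of 8.16 kb from the nearest transcript start, against 7.05 kb and 8.65 kb. First introns held 52.8% of them (51.8% to 53.9%), against 43.8% of shared peaks, 53.2% of peaks of the replicate 1 library alone, and 42.0% of the intron sequence itself. The middle 200 bp had a median GC content of 52.5%, against 51.5% in shared peaks and 42.0% in windows tiled along introns. Over 50% repeat-masked sequence was found in 7.80% of the sites and 9.09% of shared peaks, against 23.7% of tiled windows. By chromosome, sites per Mb of intron numbered 14.3 on chromosome 11, the highest, where shared peaks numbered 14.4 and peaks of the replicate 1 library alone 23.2. On X they numbered 2.25 (101 sites), against 4.37 shared peaks and 5.81 of the replicate 1 library alone, and there were none on Y.

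Consensus sequences of 21 factors were counted on both strands in the middle 200 bp of every site. The same count over 497596 tiled intron windows gives the share of intron sequence that holds each. A match describes the sequence and is no evidence of binding, and the tiled windows are lower in GC than the sites. Each consensus written backwards without complementing, which keeps its base composition, served as a control where it differs from its own reverse complement.

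The ETS consensus CNGGAAGT was found in 941 sites, or 11.5% (10.8% to 12.2%). Shared peaks had it in 5.06%, peaks of the replicate 1 library alone in 3.89% and tiled windows in 2.56%. The reversed letters were found in 3.21% of sites and 2.97% of shared peaks. The RUNX consensus AACCACA was found in 938 sites, or 11.4% (10.8% to 12.1%), against 5.70%, 4.18% and 4.86%, with 2.74% of sites and 2.84% of shared peaks for its reversed letters. Either was found in 1790 sites (21.8%), against 10.4% of shared peaks, 7.91% of peaks of the replicate 1 library alone and 7.31% of tiled windows. Both were found in 89 sites (1.08%), against 29 shared peaks (0.327%), 29 peaks of the replicate 1 library alone (0.163%) and 0.102% of tiled windows.

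The other 2 kinds behind the capitals above, TCF/LEF and E protein, gave other orders of the classes. TCF/LEF ATCAAAG was found in 328 sites, or 3.99% (3.59% to 4.44%), against 2.44% of shared peaks and 2.64% of peaks of the replicate 1 library alone, and the tiled windows had it in 3.82%. The E protein consensus CAGCTG, which has no reversed control, was found in 22.3% of sites, 15.7% of shared peaks, 23.3% of peaks of the replicate 1 library alone and 7.49% of tiled windows. The related E-box CAGGTG was found in 29.5%, 24.7%, 26.8% and 11.9%, and its reversed letters in 5.71%, 8.84%, 8.71% and 5.85%. None of the 4 kinds (ETS, RUNX, TCF/LEF and E protein) was found in 58.2% of sites and 73.9% of shared peaks. All 4 were found in 2 sites, that in Tcf12 shown above and 1 in Gpm6b.

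For other factors of thymocytes the sites lay near or below shared peaks, with the exception of KLF. The GATA consensus AGATAA was found in 7.07% of sites, 6.51% of shared peaks and 11.9% of peaks of the replicate 1 library alone. All lay below the 13.1% of tiled windows. Its reversed letters gave 4.48%, 5.93%, 7.09% and 13.0%, again highest in tiled windows. Ikaros TGGGAA was found in 16.5%, against 19.7%, 24.9% and 17.1%, and NFAT TGGAAA in 12.5%, against 16.5%, 19.6% and 20.1%. Reversed, the Ikaros letters gave 9.58%, 8.94%, 9.34% and 8.81%. Those of NFAT gave 8.35%, 9.47%, 11.4% and 12.2%, the same order as NFAT itself. ETS and NFAT share the letters GGAA. MYB, with GGCNGTT, was found in 8.80% of sites and 9.80% of shared peaks. KLF GGGNGTGG was found in 11.4% of sites and 8.85% of shared peaks, and its reversed letters in 9.40% and 6.99%, so the reversed letters showed the same order. Level between sites and shared peaks were ROR TAGGTCA (1.90% and 1.82%), AP-1 TGANTCA (6.28% and 5.93%), STAT TTCNNNGAA (4.93% and 5.00%), NR4A AAAGGTCA (0.69% and 0.64%) and IRF (2.12% and 2.01%). The rarest were NF-kB (0.40% and 0.26%) and EGR GCGTGGGCG (0.13% and 0.19%).

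The largest gap between sites and shared peaks among these consensus sequences was that of CTCF, the factor of chromatin loops. It was found in 189 sites, or 2.30% (2.00% to 2.65%), and in 19.8% of shared peaks. Peaks of the replicate 1 library alone had it in 2.19% and tiled windows in 0.32%. For factors of pancreas and liver, sites and shared peaks lay level and peaks of the replicate 1 library alone higher. FOXA TGTTTAC was found in 2.57% of sites, 2.50% of shared peaks and 5.02% of peaks of the replicate 1 library alone. HNF4 CAAAGTCCA was found in 0.16%, 0.19% and 0.63%. The reversed letters gave 2.69%, 3.12% and 3.84% for FOXA, a smaller gap in the same direction, and 0.24%, 0.15% and 0.23% for HNF4. HNF1 was found in 0 of 8213 sites, where 3 counts of the total would be 0.0365% and the Wilson upper limit is 0.0468%, in 0 of 8867 shared peaks and in 0.28% of peaks of the replicate 1 library alone.

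**Figure D5:**
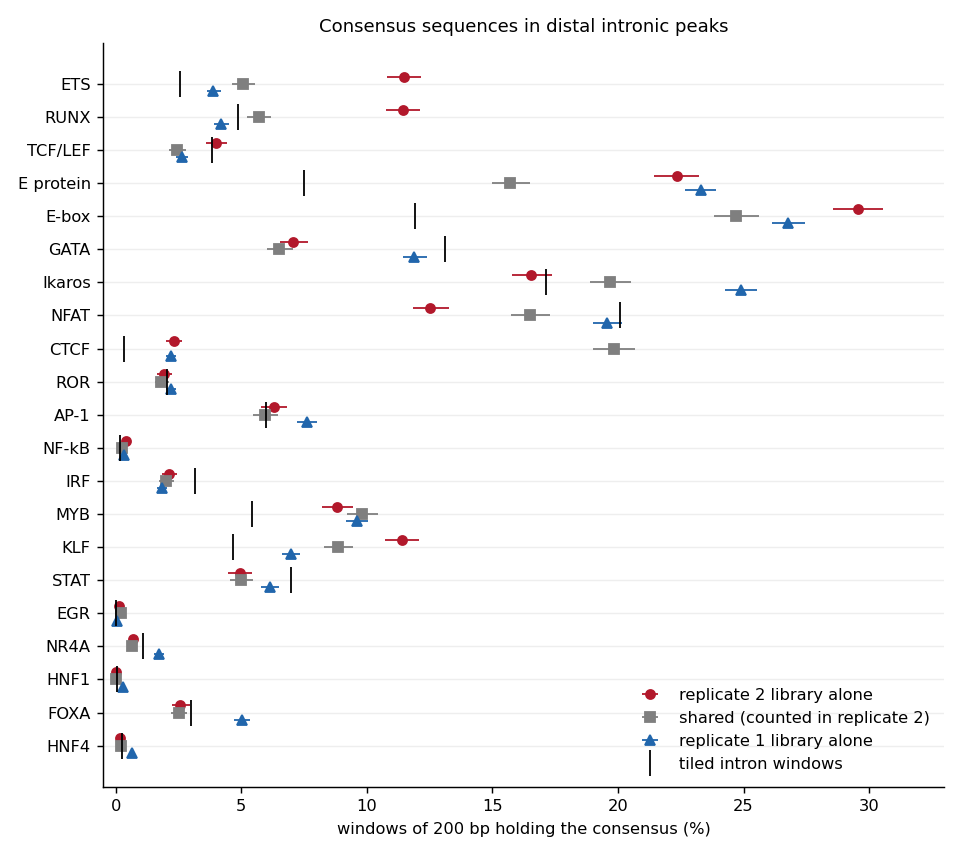
Share of 200 bp windows that hold each of 21 consensus sequences (horizontal axis, %), with 95% Wilson intervals. Circles are sites of the replicate 2 library alone, squares shared peaks, triangles peaks of the replicate 1 library alone and vertical marks tiled intron windows; ETS and RUNX stand at 11.5% and 11.4% in the sites, and CTCF at 19.8% in shared peaks.

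Matches were also set against the replicate 2 footprints, which covered 13.0% of the bases of these windows. Of the RUNX matches in the sites 33.7% overlapped a footprint, against 11.1% of matches to its reversed letters. For TCF/LEF the shares were 34.4% and 15.0%, and for ETS 26.8% and 20.5%. CTCF matches, though few, overlapped a footprint in 67.7% of cases, against 5 of the 10 matches to its reversed letters. Other kinds went either way. MYB matches overlapped a footprint in 18.2% of cases, against 31.6% for its reversed letters, and ROR matches in 16.4% against 21.2%. GATA (11.06% and 11.14%) and NFAT (16.1% and 15.8%) lay level, and KLF stood at 48.1% and 45.3%. Longer matches touch a footprint more readily, so shares are comparable only with those of the reversed letters. In the 2051 sites above the median signal of all replicate 2 peaks, ETS was found in 13.6%, RUNX in 12.7% and the E protein consensus in 28.7%. KLF and its reversed letters were higher there too (13.8% and 11.8%), while GATA (6.24%) and Ikaros (14.2%) were lower than in all the sites. Shared peaks of like signal were not counted beside these.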

How the data were processed

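DNase-seq was measured in 2 thymus libraries (1 group, numbered by the labels). Per the labels the assembly is mm10. The deposited peak lists give a signal per peak, the deposited FDR cut rate tables a p-value (FDR) per interval listed below 0.05, and the deposited footprint lists a score that is constant and was not used. Per the deposited notes all derive from the filtered alignments of the same library. Not given in the sources used here were the aligner, callers, versions, thresholds and scaling. Depth is unknown.

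Sites were classified with GENCODE vM21 (132629 transcript starts, 21938 protein-coding genes) and read from GRCm38.p6, in Python 3.11.15 with numpy 2.4.6, pandas 2.3.3 and scipy 1.17.1, after the code was tested on simulated data. A gene hosts a peak when its span holds the midpoint. Named were the 20 hosts with the most sites, the 10 densest protein-coding genes with at least 5 sites, up to 4 hosts per list, the 10 strongest sites, and T lineage list genes without a site where at most 5. Fyn, Cd44, Rora, Foxp1, E2f2, Gpm6b and Tcf12 were named after their values were seen. The members and lists were chosen with earlier results of these data known. No test was run, since 1 library stands on either side of the rule. Shares have Wilson intervals at 95%. Alternatives changed the distance from a start, the overlap, the lists, the signal, the host and the joining of peaks.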

Additional observations from a re-analysis of the deposited data

How the results depend on the processing

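The share of replicate 2 intronic peaks without a partner was 48.1%. It was 46.4% over 500 bp from every start, 49.2% over 2500 bp, 51.0% with 50% overlap required, 43.8% with no replicate 1 peak within 500 bp, 55.3% against the shorter replicate 1 list alone, 58.9% in the longer replicate 2 list, 33.3% in peaks above the median signal and 46.1% with no listed replicate 1 interval. The 8213 sites became 16262 in the longer list and 2051 above the median signal, and 6787 to 9443 under the other settings of distance, overlap, list and interval. Without replicate 1 the rule keeps 17080 peaks (100%), and without replicate 2 no site exists. Of the first 20 hosts 11 stayed among the first 20 above the median signal and 1 when ranked per 100 kb of intron. No paired analysis was possible because the series has 1 group. Peaks per library rest on an unknown depth, so absence from a list does not show that a site was closed. Host counts rest on overlapping gene spans. The causes of these shifts were not tested.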
